A study of Mus musculus with 8 samples.

Results

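The insulin-like growth factor (IGF) family was examined in the hippocampus of male mice after neonatal clothianidin. Clothianidin is an insecticide of the neonicotinoid class, which binds nicotinic receptors of nerve cells. The 10 members were chosen by the gene symbol that the platform annotation gives: the ligands Igf1 and Igf2, the receptors Igf1r and Igf2r, and the binding proteins Igfbp2, Igfbp3, Igfbp4, Igfbp5, Igfbp6 and Igfbp7. Each was found, on 1 transcript cluster (the set of probes that reads 1 gene), among the 19505 genes that the 22206 clusters name. Dams were given clothianidin by mouth at 65 mg/kg/day, a dose labelled as having no observed adverse effect, or vehicle, from postnatal day 1 to postnatal day 4. Male offspring were sampled at 3 weeks or at 10 weeks of age, and each of the 4 combinations of treatment and age had 2 arrays. The strain is not given in the sources used here, nor whether each array stands for its own animal or litter, so p-values here measure the spread between these samples alone, and that spread may be technical. Levels are log2 intensities, so a difference of 1 is a doubling, and the level of a gene was never set against that of another gene.

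IGF1 and IGF2 are secreted growth factors that signal through the receptor tyrosine kinase IGF1R, while IGF2R, the cation-independent mannose 6-phosphate receptor, binds IGF2 and carries it to lysosomes. The binding proteins hold the ligands outside cells and can limit or prolong their action, and IGFBP7 is a relative that binds the ligands weakly. In the adult brain Igf2 is made mainly by the choroid plexus, the meninges and vessels, and IGF2 has been studied for its part in hippocampal memory. Igf1 is made by some neurons and by glia, and Igfbp2 by glia and the choroid plexus.

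The sequences just upstream of Igf2, Igfbp2 and Igfbp7 are shown because these were the members that were highest in the same 3 arrays, described further on. RefSeq start sites of all 10 members were found in GRCm38.p6, with 14 windows of 250 bases before a start. Igf2 has 4 of these windows and Igfbp2 has 2, and an array cluster does not tell which start was used. The Igf2 window shown, chr7:142657497-142657746 on the minus strand, is the one of its 4 with the most GC boxes, the Igfbp2 window is chr1:72824230-72824479 on the plus strand, and the Igfbp7 window is chr5:77408046-77408295 on the minus strand. Capitals mark GGGCGG, the GC box, on either strand.
Igf2: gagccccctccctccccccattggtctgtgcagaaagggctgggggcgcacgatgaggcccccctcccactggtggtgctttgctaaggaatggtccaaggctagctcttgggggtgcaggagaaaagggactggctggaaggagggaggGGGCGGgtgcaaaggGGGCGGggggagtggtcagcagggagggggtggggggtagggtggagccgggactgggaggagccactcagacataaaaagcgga
Igfbp2: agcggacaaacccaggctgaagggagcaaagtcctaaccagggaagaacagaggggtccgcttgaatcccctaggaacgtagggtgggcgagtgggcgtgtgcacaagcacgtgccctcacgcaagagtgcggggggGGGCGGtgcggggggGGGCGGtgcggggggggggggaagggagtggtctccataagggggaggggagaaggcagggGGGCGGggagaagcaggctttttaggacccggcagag
Igfbp7: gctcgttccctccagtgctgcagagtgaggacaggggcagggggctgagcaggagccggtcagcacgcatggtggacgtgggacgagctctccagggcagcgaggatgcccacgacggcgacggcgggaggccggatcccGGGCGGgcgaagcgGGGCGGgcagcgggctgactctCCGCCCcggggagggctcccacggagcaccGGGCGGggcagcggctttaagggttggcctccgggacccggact
The GC box lay 100 and 85 bases before the start in this Igf2 window, 113, 98 and 37 bases before it in Igfbp2, and 110, 96, 74 and 44 bases before it in Igfbp7. It was present in 6 of the 14 windows, of 5 members, and in 32.7% of all 32851 windows of the same length. TATAAA, the TATA box, was found upstream of Igfbp4, 28 bases before the start, and of Igfbp6, 148 bases before it, and in 12.4% of all windows. TAATCC, the core site of the choroid plexus and forebrain factor OTX2, was found in 0 of the 14 windows and in 6.25% of all windows. None of these motifs overlapped another, and each was searched on both strands. In the genome Igfbp2 and Igfbp5 are neighbouring genes.

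Array medians lay between 5.73 and 5.86, and arrays correlated at a Pearson r of 0.973 to 0.991 over all clusters. Of the 10 measured markers of hippocampal excitatory neurons, 9 or all 10 lay above the array median in each array. Ttr, the thyroid hormone carrier of the choroid plexus, separated the arrays. Its level was 19.16 in vehicle replicate 2 and 18.82 in clothianidin replicate 1 at the age of 3 weeks, and 18.25 in clothianidin replicate 1 at the age of 10 weeks, while the remaining 5 arrays lay between 5.24 and 7.37. These 3 are called the high-Ttr arrays here. All 16 measured choroid plexus markers were higher in the high-Ttr array than in the other array of the same group, in each of the 3 groups that hold both. Without Ttr, the levels of the other 15 markers were summed on the linear intensity scale. At 3 weeks the sums were 586.8 and 9969 in the vehicle arrays and 7335 and 687.0 in the clothianidin arrays. At 10 weeks they were 752.6 and 623.4 in the vehicle arrays and 9921 and 461.1 in the clothianidin arrays. In bulk tissue, more cells of a type and more RNA per cell cannot be told apart.

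Of the ligands, Igf2 had a wide spread between arrays and Igf1 a narrower one. Igf2 read 12.44 and 14.22 in the vehicle arrays at 3 weeks, 14.57 and 14.03 in the clothianidin arrays at 3 weeks, 13.16 and 13.22 in the vehicle arrays at 10 weeks, and 14.37 and 11.94 in the clothianidin arrays at 10 weeks. Its highest and its lowest values at 10 weeks thus came from the same group, the clothianidin arrays. In order, the Igf2 group means were 14.30 ± 0.38 with clothianidin and 13.33 ± 1.26 with vehicle at 3 weeks, then 13.19 ± 0.04 with vehicle and 13.16 ± 1.72 with clothianidin at 10 weeks (SD, n = 2 each), and neighbours in this order differed by less than the larger of their spreads. The standard deviation of Igf2 over the 8 arrays, 0.96, was as large as or larger than that of 99.3% of all clusters. Igf1 read 8.61 and 8.82 with vehicle and 8.16 and 9.30 with clothianidin at 3 weeks, and 8.85 and 8.80 with vehicle and 8.59 and 8.22 with clothianidin at 10 weeks. At 3 weeks the clothianidin arrays held both the lowest and the highest Igf1 value of all 8, and at 10 weeks both lay below the vehicle arrays. The Igf1 group means ran from 8.41 ± 0.26 (SD, n = 2) in clothianidin arrays at 10 weeks to 8.83 ± 0.04 (SD, n = 2) in vehicle arrays at 10 weeks, and the means of 8.71 and 8.73 at 3 weeks, between them, differed by less than their spread.

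Both receptors had their highest value in the second vehicle array at 10 weeks. Igf1r read 6.94 and 7.43 with vehicle and 7.43 and 7.24 with clothianidin at 3 weeks, and 7.91 and 8.16 with vehicle and 7.29 and 7.59 with clothianidin at 10 weeks. The vehicle arrays at 10 weeks were thus the highest of the 8, and the other 3 groups, at means of 7.19 ± 0.35, 7.34 ± 0.13 and 7.44 ± 0.21 (SD, n = 2 each), overlapped. Igf2r read 10.40 and 10.07 with vehicle and 10.05 and 10.14 with clothianidin at 3 weeks, and 10.20 and 11.33 with vehicle and 10.70 and 10.73 with clothianidin at 10 weeks. A single value, that of the second vehicle array at 10 weeks, stood apart from the rest, and the means at 10 weeks, 10.77 ± 0.80 and 10.72 ± 0.02 (SD, n = 2 each), differed by less than this spread.

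Among the binding proteins, Igfbp2 varied most. Igfbp2 read 10.35 and 11.48 with vehicle and 11.42 and 9.89 with clothianidin at 3 weeks, and 9.55 and 9.70 with vehicle and 10.51 and 9.07 with clothianidin at 10 weeks. Its standard deviation over the 8 arrays was 0.87, as large as or larger than that of 98.9% of all clusters, and its 3 highest values came from the high-Ttr arrays. Igfbp7 read 9.74 and 10.44 with vehicle and 10.63 and 9.81 with clothianidin at 3 weeks, and 9.99 and 9.29 with vehicle and 10.14 and 9.76 with clothianidin at 10 weeks. Here too the 3 highest values were those of the high-Ttr arrays, and all 4 groups overlapped. Igfbp4, which inhibits IGF action and is cleaved by the protease PAPPA, ranged from 9.59 to 10.62 with a median of 10.10. Igfbp5, which also binds extracellular matrix, ranged from 9.98 to 11.27 with a median of 10.56, and its highest value came from the second clothianidin array at 10 weeks. Igfbp6, which prefers IGF2 over IGF1, read 6.63 and 6.14 with vehicle and 5.55 and 5.87 with clothianidin at 3 weeks, and 6.08 and 6.13 with vehicle and 5.94 and 6.41 with clothianidin at 10 weeks. The clothianidin arrays at 3 weeks lay below the vehicle arrays of that age, while the groups overlapped at 10 weeks. Igfbp3, the main carrier of IGF1 in blood, ranged from 5.45 to 6.41 and stood above the array median in 4 of 8 arrays, so its signal over background is less sure than that of members which, like Igf2, Igf2r, Igfbp2, Igfbp4, Igfbp5 and Igfbp7, exceeded the upper quartile in all 8.

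**Figure D1:**
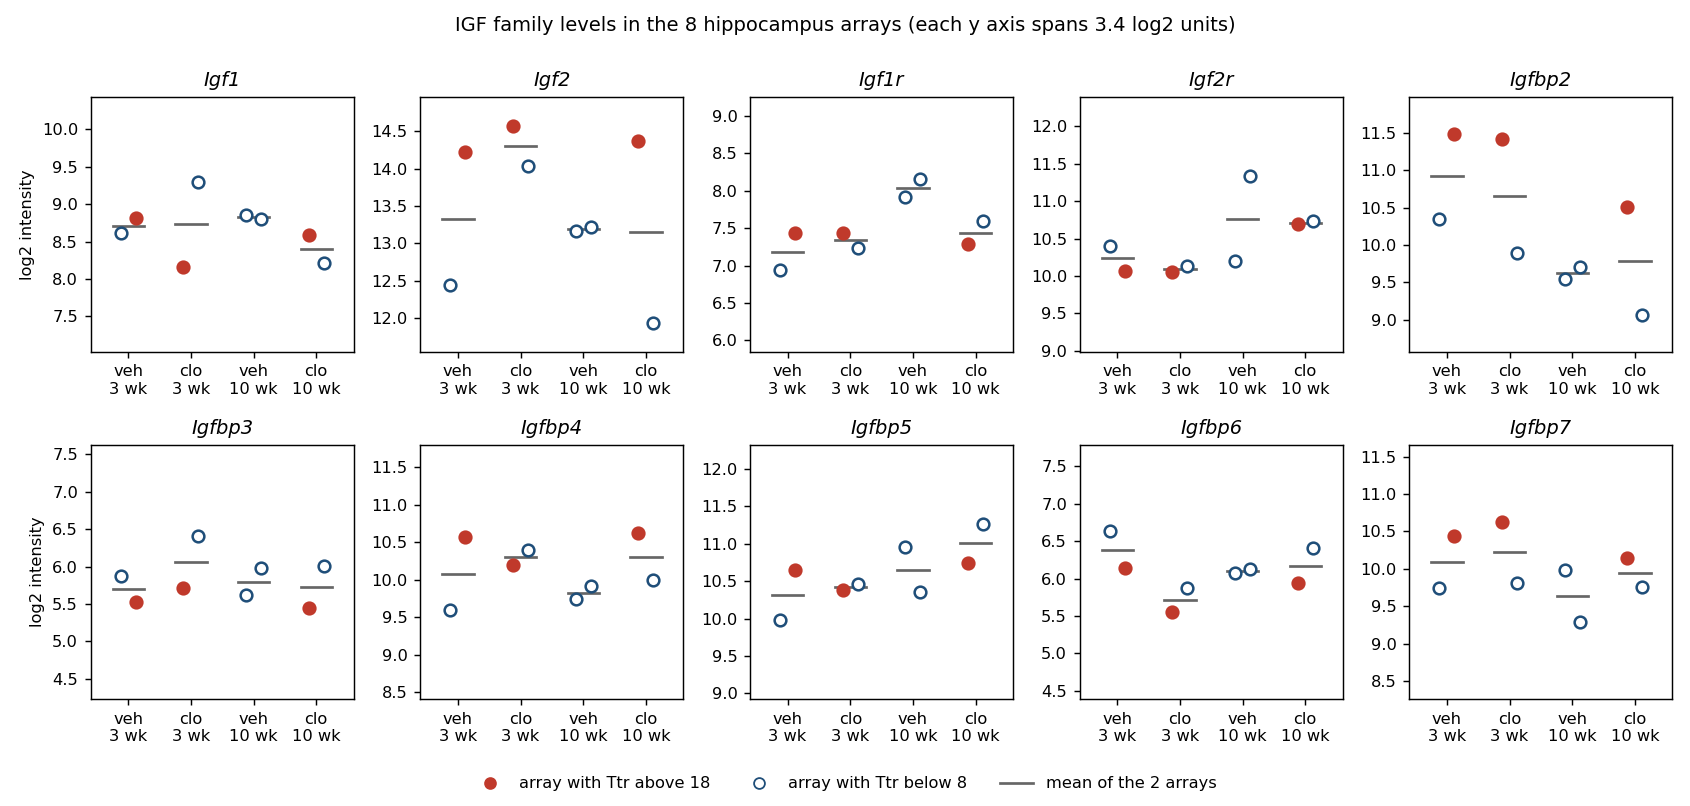
Log2 intensity of each family member (y axis, of the same length in every panel) in the 4 groups (x axis), with 1 point per array, filled red where Ttr was above 18, and a line at the mean of the 2 arrays. For Igf2, Igfbp2 and Igfbp7 the 3 red points are the 3 highest, and for Igf1r the vehicle arrays at 10 weeks are.

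Against the Ttr level, the family split into members that were higher, lower or mixed in the high-Ttr arrays. In each of the 3 groups that hold both kinds of array, 3 of the 10 members, Igf2, Igfbp2 and Igfbp7, were higher in the high-Ttr array, as were 13.2% of all clusters. The same 3 members had all 3 high-Ttr arrays as their highest, as did 1.62% of all clusters. Another 3 members, Igf2r, Igfbp3 and Igfbp6, were lower in the high-Ttr array of each group, as were 13.3% of all clusters. These groups of arrays were defined from the data and no test was made of them. Since the arrays form 2 separate sets in Ttr, no correlation with Ttr is given.

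Igf2 was higher in the high-Ttr array by 1.78 in the vehicle group at 3 weeks, 0.54 in the clothianidin group at 3 weeks and 2.43 in the clothianidin group at 10 weeks. The vehicle arrays at 10 weeks, both low in Ttr, differed by 0.06. For Igf2 the gap between its lowest high-Ttr value, 14.22, and its highest other value, 14.03, was small, because the second clothianidin array at 3 weeks had high Igf2 at a Ttr level of 7.09. Igfbp2 was higher by 1.13, 1.53 and 1.44 in the same order of groups, against 0.15 between the vehicle arrays at 10 weeks. Its high-Ttr values started at 10.51 and the others ended at 10.35. Igfbp7 was higher by 0.70, 0.82 and 0.38, while the vehicle arrays at 10 weeks, with Ttr at 6.86 and 7.37, differed by 0.70.

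Igfbp3 was lower in the high-Ttr array by 0.34, 0.69 and 0.56, Igfbp6 by 0.49, 0.32 and 0.47, and Igf2r by 0.33, 0.09 and 0.03. Igfbp4 was higher by 0.98 and 0.63 in 2 of the groups and differed by -0.20 in the clothianidin group at 3 weeks. Igf1 differed by 0.21, -1.14 and 0.37, Igf1r by 0.49, 0.19 and -0.30, and Igfbp5 by 0.67, -0.08 and -0.53. These 4 members had no common direction. The counts of 3 and 3 members were also found after quantile normalisation and after centring of each array on its median. Without the clothianidin group at 3 weeks, 5 members were higher in both remaining groups. That is a looser condition, and its share over all clusters was not counted. Of 16 markers of meninges and fibroblasts, 2 were higher and 3 lower in the high-Ttr array of each group, shares near the 13.2% and 13.3% of all clusters. Their summed level was 4815 to 6311 in the high-Ttr arrays and 4010 to 15369 in the others. Of 10 endothelial markers 2 were higher and 1 lower, of 10 mural cell markers 0 were higher and 2 lower, and of 10 markers of hippocampal excitatory neurons 7 were higher and 1 lower, to be read against the same shares. The part of these cell types in the family's values was not tested.

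**Figure D2:**
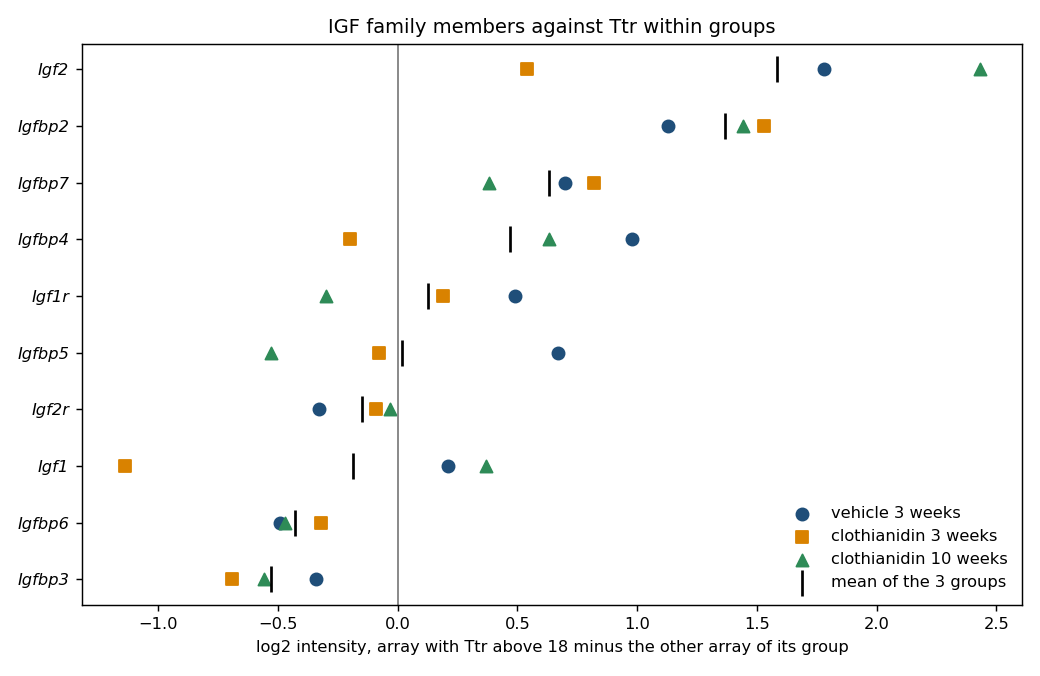
Log2 intensity of the array with Ttr above 18 minus that of the other array in the same group (x axis) for each family member (y axis), with 1 symbol per group and a bar at the mean of the 3 groups. Igf2, Igfbp2 and Igfbp7 lie above 0 in all 3 groups, and Igfbp3, Igfbp6 and Igf2r below 0.

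The exposure comparisons asked whether neonatal clothianidin altered these genes at each age. No family member passed the threshold of an adjusted p under 0.05 in limma, a linear model fitted to all clusters, at 3 or 10 weeks, nor did any of the 22206 clusters (0% at each age). At 3 weeks 7 members had positive and 3 negative differences, clothianidin minus vehicle, with a median of 0.12 against -0.01 over all clusters. At 10 weeks 5 were positive and 5 negative, with a median of 0.02 against 0.01 over all clusters. Without adjustment, a p under 0.05 was reached at 3 weeks by 1 of 10 members, Igfbp6, and by 5.9% of all clusters, and at 10 weeks by 0 of 10 members and 3.69% of all clusters.

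Igfbp6 differed by -0.68 ± 0.30 (SE, n = 2 against 2) at 3 weeks, with an adjusted p of 0.846 (limma), and by 0.07 ± 0.30 at 10 weeks. It was the only member of the 10 whose groups did not overlap at 3 weeks, a state found in 34.4% of all clusters (17.2% with higher and 17.2% with lower clothianidin arrays). The high-Ttr array of each group had the lower Igfbp6 value, and adding Ttr to the model as a covariate gave -0.67. Leaving out vehicle replicate 1 at 3 weeks gave -0.43, and leaving out replicate 2 gave -0.92. No member had an unadjusted p under 0.05 in a fit with replicate numbers as a block, after median centring, with a prior that follows the mean level or with the groups of that age alone. Igf2 differed by 0.97 ± 0.69 at 3 weeks (adjusted p 0.863 in limma), with overlapping groups. This value depended on which vehicle array of that age was kept. It was 0.08 without the first, which leaves only the high-Ttr vehicle array, and 1.86 without the second, which leaves only the low-Ttr vehicle array. With Ttr as a covariate the Igf2 difference at 3 weeks was 0.95 ± 0.37 (SE, adjusted p 0.757 in limma). Without the 3 high-Ttr arrays Igf2 differed by 1.59 at 3 weeks and -1.25 at 10 weeks, but every group except vehicle at 10 weeks then holds 1 array, so these are given as values with no test. At 10 weeks the Igf2 difference over all arrays was -0.04 ± 0.69, and it was 1.18 without the second and -1.25 without the first clothianidin array of that age.

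At 10 weeks 3 of 10 members had groups that did not overlap, against 30.7% of all clusters, or 15.3% lower and 15.4% higher. Igf1r was lower in clothianidin arrays, at 7.44 ± 0.21 against 8.04 ± 0.18 (SD, n = 2 each), a difference of -0.60 ± 0.29 (SE) with a 95% confidence interval from -1.22 to 0.03. Igf1 differed by -0.42, with an interval from -1.20 to 0.36, and by -0.61 without the first and -0.24 without the second clothianidin array. Igfbp4 differed by 0.48, with an interval from -0.30 to 1.26. All 3 had an adjusted p of 0.997 in limma. Igfbp4 also had the higher value in the high-Ttr array of this group, and it differed by 0.17 without that array and by 0.80 without the other clothianidin array. With Ttr as a covariate Igfbp4 differed by 0.30. Igf1r differed by -0.45 without the high-Ttr array, by -0.75 without the other clothianidin array and by -0.64 with Ttr as a covariate. The remaining exposure differences lay between -0.26 (Igfbp2) and 0.37 (Igfbp3) at 3 weeks and between -0.07 (Igfbp3) and 0.35 (Igfbp5) at 10 weeks, all with overlapping groups.

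The difference between the exposure effects, that at 10 weeks minus that at 3 weeks, was -1.01 ± 0.97 for Igf2, -0.75 ± 0.40 for Igf1r and 0.75 ± 0.42 for Igfbp6 (SE). The adjusted p in limma was 0.998 for all 10 members, 0% of clusters were called, and 0 of 10 members had an unadjusted p under 0.05 against 3.13% of all clusters. With Ttr as a covariate this difference was -1.59 ± 0.54 for Igf2 and 0.90 ± 0.39 for Igfbp6, the 2 members with an unadjusted p under 0.05 in that fit, both with an adjusted p of 0.999 in limma. For Igf2 it ran from -2.22 to 0.21 when 1 array at 10 weeks was left out, the first and the second clothianidin array respectively, and was -2.84 without the 3 high-Ttr arrays. Averaged over both ages, the exposure differences ran from -0.30 ± 0.21 for Igfbp6 to 0.47 ± 0.49 for Igf2, with 5 members above and 5 below 0. Here too limma called 0% of clusters, and an unadjusted p under 0.05 was reached by 0 of 10 members and 6.17% of all clusters. With 2 arrays per group the intervals are wide: that of Igf2 at 3 weeks ran from -0.54 to 2.48, and that of Igfbp2 from -1.49 to 0.97.

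**Figure D3:**
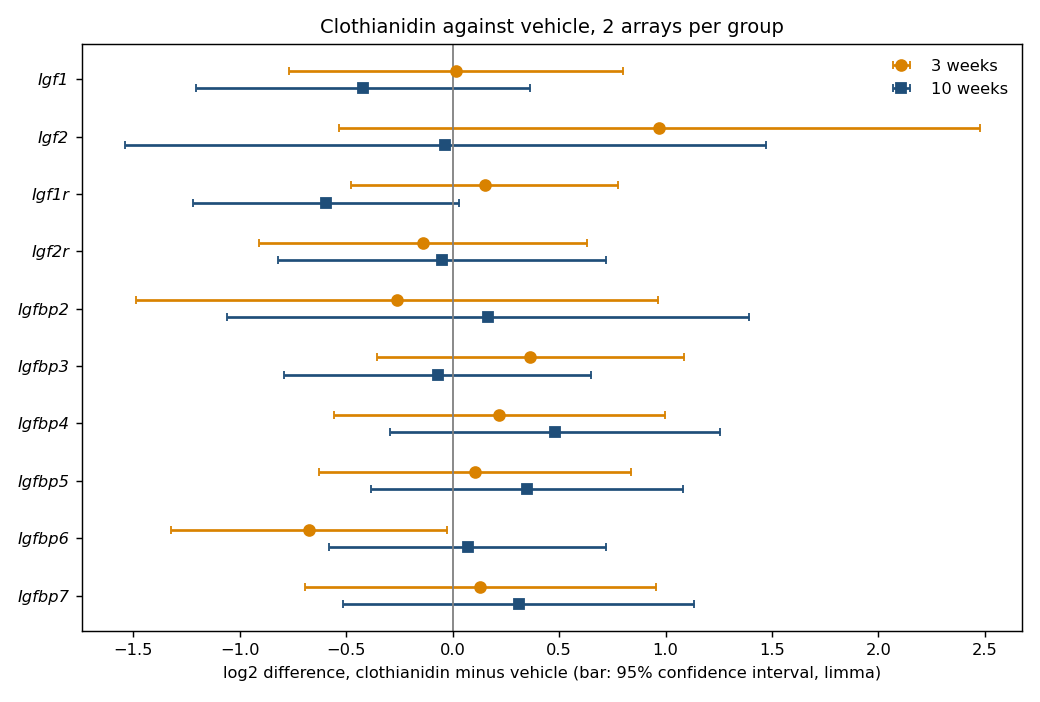
Log2 difference between clothianidin and vehicle arrays (x axis) for each family member (y axis) at 3 weeks (circles) and 10 weeks (squares), with the 95% confidence interval of limma. The interval of Igfbp6 at 3 weeks, from -1.32 to -0.03, is the only one of the 20 that leaves out 0, before any adjustment.

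The age comparison asked how the family differed between juvenile and adult hippocampus, with 4 arrays on each side. In this comparison limma called 11.2% of all clusters (2490, of which 1415 were higher and 1075 lower at 10 weeks), and 0 of the 10 family members. After centring of each array on its median, 43.6% of the called clusters were higher, against 56.8% as deposited. An unadjusted p under 0.05 was reached by 3 members, Igfbp2, Igf1r and Igf2r, and by 29.5% of all clusters. No member had groups that did not overlap, against 19.7% of all clusters (11.8% higher and 7.89% lower at 10 weeks). The count of called clusters was 2550 without the second vehicle array at 3 weeks, but between 628 and 1357 without any other single array, and 0 without the 3 high-Ttr arrays. The fit without the 3 high-Ttr arrays has a single array in every group but vehicle at 10 weeks. A count of 0 there cannot tell a part of Ttr from the loss of arrays. The median over the members was -0.11, and that over all clusters was 0.07.

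Igfbp2 stood at 10.92 and 10.66 in the vehicle and clothianidin groups at 3 weeks and at 9.63 and 9.79 at 10 weeks, a difference of -1.08 ± 0.40 (SE, n = 4 against 4) with an adjusted p of 0.0981 in limma. It was lower at 10 weeks by 1.29 in vehicle and by 0.87 in clothianidin arrays. At 3 weeks 2 of 4 arrays were high in Ttr, and at 10 weeks 1 of 4. With Ttr as a covariate the Igfbp2 difference was -0.70 ± 0.21 (adjusted p 0.0520 in limma), and over the 5 arrays low in Ttr it was -0.77, with a single array in every group but vehicle at 10 weeks. Within those 5 arrays Igfbp2 read 10.35 and 9.89 at 3 weeks and 9.55, 9.70 and 9.07 at 10 weeks. Igf1r, in the other direction, read 6.94 and 7.24 at 3 weeks and 7.91, 8.16 and 7.59 at 10 weeks. The share of all clusters that separate the ages in these 5 arrays was not counted, so these values are a description only.

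Igf2r was higher at 10 weeks by 0.58 ± 0.25 (SE), (adjusted p 0.150 in limma), and it differed by 0.53 in vehicle and by 0.62 in clothianidin arrays. Without the second vehicle array at 10 weeks, the array with the high Igf2r value, the difference was 0.29. Without the first vehicle array at 10 weeks it was 0.86 and passed, with an adjusted p of 0.0444. Igf1r was higher at 10 weeks by 0.48 ± 0.20 (adjusted p 0.143 in limma), with 0.85 in vehicle and 0.11 in clothianidin arrays. Igfbp5 gave 0.46 ± 0.24, and Igf2 -0.64 ± 0.49, of which -0.14 came in vehicle and -1.15 in clothianidin arrays. The Igf2 difference was -0.04 with clothianidin replicate 2 at 10 weeks left out and -1.25 with replicate 1 left out, while it was -0.19 with Ttr as a covariate and -0.67 without the 3 high-Ttr arrays. Igfbp7 gave -0.36 ± 0.27, and Igf1, Igfbp3, Igfbp4 and Igfbp6 lay between -0.13 and 0.09.

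Other markers were also compared between the ages. Of 9 measured oligodendrocyte markers, 8 were lower at 10 weeks past the threshold, against 4.84% of all clusters, with a median difference of -1.60 (log2). Their summed linear level was 223792 to 472980 in the arrays at 3 weeks and 129799 to 162018 at 10 weeks. Choroid plexus markers were lower in 15 of 16 cases, none past the threshold, with a median of -0.76. Whether these differences bear on the age differences of the family was not tested.

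**Figure D4:**
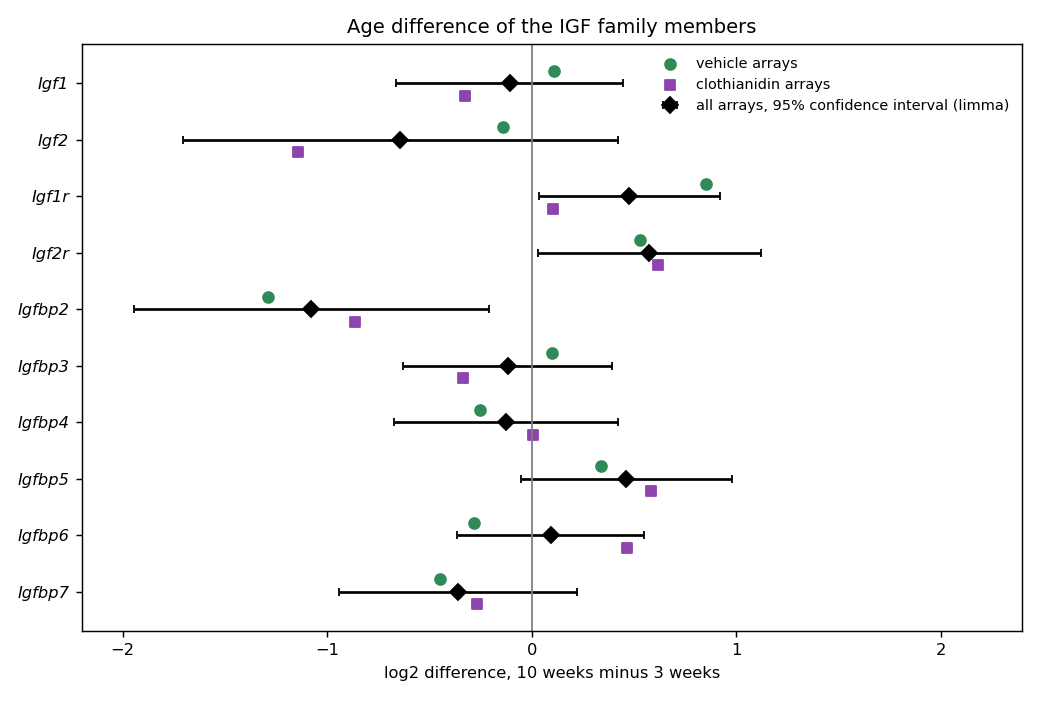
Log2 difference between 10 and 3 weeks (x axis) for each family member (y axis), over all arrays with the 95% confidence interval of limma (diamonds), in vehicle arrays (circles) and in clothianidin arrays (squares). Igfbp2 has the most negative difference over all arrays, -1.08, and Igf2r the most positive, 0.58.

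Genes that act with the family were taken from fixed lists, and those that passed the threshold did so with age, since no cluster passed for exposure. Beside the members, 6 IGF-related genes were measured (Ins2, Insr, Insrr, Igfals, Igfbp1 and Igfbpl1). Of these, 1 was higher and 1 lower at 10 weeks, against 6.37% and 4.84% of all clusters. Insr, the insulin receptor, which also pairs with IGF1R, read 11.02 to 11.33 at 3 weeks and 11.68 to 12.09 at 10 weeks, a difference of 0.73 ± 0.19 (SE) with an adjusted p of 0.0369 in limma. All 4 arrays at 10 weeks were above all 4 at 3 weeks, as in 11.8% of all clusters. Ins2, an insulin gene, differed by -0.80 ± 0.23 (adjusted p 0.0479 in limma), from 4.17 to 5.12 at 3 weeks to 3.51 to 4.23 at 10 weeks, with overlap and with levels near the lower quartile of the arrays. When 1 array was left out, the call was kept in 1 of 8 fits, that without the first vehicle array at 10 weeks for Insr and that without the second vehicle array at 3 weeks for Ins2. Neither call was kept with Ttr as a covariate or after quantile normalisation, while the differences stayed between 0.51 and 0.83 for Insr and between -0.96 and -0.64 for Ins2 over all alternatives.

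Of 31 measured genes of IGF receptor signalling, 0 were called higher and 2 lower at 10 weeks, against 6.37% and 4.84% of all clusters, while 22 had a positive and 8 a negative difference, with a median of 0.24 against 0.07 over all clusters. Ptpn11, the phosphatase SHP2 that links receptor kinases to the Ras pathway, read 10.06 to 10.40 at 3 weeks and 9.08 to 9.67 at 10 weeks, a difference of -0.85 ± 0.19 (adjusted p 0.0190 in limma). Irs4, a docking protein of the insulin and IGF1 receptors, differed by -0.89 ± 0.22 (adjusted p 0.0287), at levels of 3.23 to 4.74 near the lower quartile of the arrays. Irs2, the related docking protein, gave 0.60 ± 0.18 (adjusted p 0.0577), and the transcription factor Foxo1, which the pathway inhibits, 0.67 ± 0.20 (adjusted p 0.0523). Leaving out 1 array at a time kept the call of Ptpn11 in 4 of 8 fits and that of Irs4 in 2 of 8, and neither was kept without the 3 high-Ttr arrays. The differences themselves stayed between -1.05 and -0.77 for Ptpn11 and between -1.08 and -0.73 for Irs4 over all alternatives. The fit without the 3 high-Ttr arrays has a single array in every group but vehicle at 10 weeks. A lost call there cannot tell a part of Ttr from the loss of arrays. For exposure 0 of the 31 passed at either age. At 3 weeks 24 had a positive difference, with a median of 0.15 against -0.01 over all clusters, and at 10 weeks 22, with a median of 0.16 against 0.01. The count at 3 weeks rested on the first vehicle array, whose mean level over the list was 9.27 against 9.53 to 9.63 in the other 3 arrays: without it, 15 of 31 genes had a positive difference, with a median of -0.01. At 10 weeks 16 of 31 were positive without the second vehicle array, with a median of 0.05.

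Of 11 measured proteases of the binding proteins and inhibitors of these proteases, 0 passed in any comparison, against 11.2% of all clusters with age. Those with the largest test statistics for exposure at 3 and at 10 weeks were Stc2, a stanniocalcin that inhibits PAPPA, at 0.85 ± 0.40 at 3 weeks (4.28 and 4.94 with vehicle, 5.37 and 5.55 with clothianidin), and the protease Adamts1 at 0.81 ± 0.35 at 10 weeks (6.61 and 6.69 with vehicle, 7.60 and 7.31 with clothianidin), with adjusted p of 0.849 and 0.997 in limma. Neither pair of groups overlapped, a state found in 34.4% of all clusters at 3 weeks and 30.7% at 10 weeks. At 3 weeks the groups of Pappa, Mmp2, Timp1 and Prss23, of the same list, did not overlap either. At 10 weeks those of Pappa did not overlap, with a difference of -0.35 there and 0.55 at 3 weeks. Of 4 measured genes that bind Igf2 mRNA or belong to imprinted regions, 1 was called lower at 10 weeks, against 4.84% of all clusters. It was Ddc, the enzyme that makes dopamine and serotonin, with a difference of -1.04 ± 0.22 (adjusted p 0.0166 in limma). Its call was kept in 6 of 8 fits with 1 array left out. Igf2bp3, which binds Igf2 mRNA, had the largest test statistic of that list for exposure averaged over both ages, at -0.86 ± 0.28 (adjusted p 0.774). It read 6.01 and 5.45 with vehicle and 5.61 and 4.57 with clothianidin at 3 weeks, and 5.92 and 5.96 against 4.41 and 5.32 at 10 weeks. Its groups thus overlapped at 3 weeks and not at 10, the latter as in 30.7% of all clusters.

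Genes with the pattern most like that of a member were sought for the 4 members with the largest standard deviation over the arrays, among 9803 genes at or above the median level. Pearson's r over the 8 arrays, which share their ages, treatments and Ttr differences, served as the measure and is a description only. For Igf2 the leading genes were Cpq (r = 0.934), the semaphorin receptor gene Plxnb2 (0.933), Islr (0.927), a gene of the meninges and fibroblast list, and Erh (0.926). Over the 5 arrays low in Ttr these gave 0.984, 0.967, 0.888 and 0.893. For Igfbp2 they were Mea1 (0.946), Hspa14 (0.921), Fgf13 (0.916) and Cd164 (0.915), with 0.897, 0.449, 0.590 and 0.819 over the 5 arrays. For Igf2r they were the coactivator gene Ppargc1b (0.975), the histone gene H3c7 (0.971), Brf1 of RNA polymerase III (0.960) and the cohesin gene Stag1 (0.958). Over the 5 arrays these gave 0.974, 0.970, 0.971 and 0.962. Both sets of arrays hold the second vehicle array at 10 weeks, whose Igf2r value stood apart, and r without it was not computed. For Igfbp7 the leading genes were Usf2 (0.956), the small heat shock protein gene Hspb6 (0.950), Bnip2 (0.948) and Bok (0.947), with 0.981, 0.929, 0.892 and 0.881 over the 5 arrays.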

How the data were processed

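Hippocampal RNA was measured on 8 whole-transcript arrays, with 250 ng of RNA per array and an RNA integrity number above 7.0, per the labels. The authors deposited log2 intensities, made with RMA per the submitters' processing notes (no version given). The values themselves show the log2 scale, and joint normalisation of the arrays is not stated. All 22206 clusters were used: 19572 carry 1 symbol and 2634 none. The number of arrays limits the precision.

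A mean per group was fitted in limma 3.58.1 (R 4.3.3) with 4 residual degrees of freedom. The 5 contrasts were the exposure effect at 3 and at 10 weeks, the difference and the mean of the 2 effects, and 10 against 3 weeks. Tests were two-sided with Benjamini-Hochberg adjustment over all clusters at 0.05. The model was tested on simulated data. Members and lists were chosen with earlier results of these data known. All members are named, as are up to 4 called genes per pathway list and contrast (otherwise the 2 with the largest test statistic, not all of which are printed) and the 4 genes most like each of 4 members, without predicted genes and clones. Marker lists whose values touch no result of the family are not described. Motifs were searched in RefSeq windows (GRCm38.p6).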

Additional observations from a re-analysis of the deposited data

How the results depend on the processing

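Over all alternatives, 61 of 1020 member differences changed sign, 47 of them when 1 array was left out, and 963 moved by less than the residual standard deviation of the gene. Under quantile normalisation Igf1 at 3 weeks and Igfbp6 with age changed sign; under median centring no member did. No member was called for exposure in any alternative with adjusted p-values. In the age comparison 1 member passed at an adjusted p under 0.1 (Igfbp2) and 0 to 1 when 1 array was left out (Igf2r without the first vehicle array at 10 weeks). Under a looser rule, a difference of 1.5-fold or more with p under 0.05 before adjustment, 1 member passed at 3 weeks (Igfbp6) and 1 with age (Igfbp2), and 1295 clusters passed for exposure at 3 weeks, 815 at 10 weeks, 695 for the difference, 696 for the mean and 4577 with age. The age comparison called 4389 clusters at an adjusted p under 0.1, 1143 of the 11104 whose level reached the median, 0 without the 3 high-Ttr arrays (4127 with an unadjusted p under 0.05) and 628 to 2550 when 1 array was left out. Without the second vehicle array at 10 weeks 1 cluster passed for exposure at 10 weeks and 1 for the difference, and 0 with any other array left out. The count of members higher in the high-Ttr array was 3 to 5, and of members lower 3 to 4, when 1 group was left out. Agreement over fewer groups is a looser condition, and its share over all clusters was not counted. The replicate number as a block gave 0 members in every comparison and 1803 clusters with age. Deviations of first replicates correlated between groups at -0.27 to 0.14. With 2 arrays per group this cannot decide whether the numbers pair the arrays. Dropping groups or arrays from the Ttr comparison, and rescaling it, leaving Ttr out of its list and leaving arrays out of the signalling list were added after the data were seen. For the difference, the mean and the age comparison, fitting only the groups compared is the fit already given. Leaving out the 3 high-Ttr arrays leaves a single array in every group but vehicle at 10 weeks. Its count of 0 with age is therefore not a result about Ttr.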

Other observations

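The growth hormone axis, which drives Igf1 in liver, was measured with 11 genes in the hippocampus. With age 1 was higher and 1 lower past the threshold, against 6.37% and 4.84% of all clusters. Of the 11, 6 had a positive and 5 a negative difference, with a median of 0.05 against 0.07 over all clusters. Stat5a, a transcription factor downstream of the growth hormone receptor, read 5.56 to 6.54 at 3 weeks and 6.52 to 7.17 at 10 weeks, a difference of 1.12 ± 0.25 (SE, adjusted p 0.0192 in limma), and its call was kept in 4 of 8 fits that left out 1 array. Cish, a target and inhibitor of STAT5, read 3.25 to 3.68 at 3 weeks and 2.52 to 2.93 at 10 weeks, below the lower quartile of the arrays, a difference of -0.70 ± 0.20 (adjusted p 0.0466), kept in 1 of 8. Over all alternatives the differences stayed between 0.88 and 1.35 for Stat5a and between -0.80 and -0.59 for Cish. For exposure 0 of 11 passed at either age. The largest test statistic came from Socs1, a cytokine signalling inhibitor, at 10 weeks, with 3.55 and 3.36 with vehicle and 2.55 and 2.62 with clothianidin, a difference of -0.87 ± 0.26 (adjusted p 0.997 in limma), also below the lower quartile.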
